A study of Mus musculus with 15 samples.

Results

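The comparison described here is a difference of differences: the effect of the compound Srci1 in TH17 cultures minus its effect in Treg cultures. It used 12 of the 15 mouse RNA-seq libraries of the study, 3 in each of 4 groups, and all 4 groups were wild type. Naive CD4 T cells sorted from spleen and lymph nodes had been plated on antibodies to CD3 and CD28, which trigger the T cell receptor and its co-receptor. TH17 cultures received TGFβ at 2.5 ng/ml with IL-6, IL-1β and IL-23, and Treg cultures received IL-2 with TGFβ, for which the protocol gives 0.5 ng/ml or an amount stated elsewhere. Antibodies that block IFNγ and IL-4 were present in each. Srci1 was added on the day after plating (24 h), its dose is not among the labels, control cultures are labelled DMSO, and RNA was taken on day 5. Age, sex and strain are not given in the labels. Of 55421 gene identifiers, 12445 reached 1 TPM (a transcript's share of its library, scaled by length) in at least 3 of the 12 libraries and were tested.

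As background, naive CD4 T cells that see TGFβ together with IL-6 act through STAT3 to make IL-17A and IL-17F, whereas TGFβ with IL-2 and without IL-6 favours FOXP3, the factor that defines regulatory T cells. Lck and Fyn are the Src family kinases that start signalling from the T cell receptor. The series title links receptor signalling to STAT3 phosphorylation in TH17 cells, and the present comparison asks which responses to Srci1 were shared by the cultures, which were seen in 1 culture, and which ran in opposite directions.

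The labelled cell types had their defining transcripts. All 7 CD4 T cell markers were above 1 TPM, with a summed level of 2685 to 3250 TPM in every library, Il17a averaged 1338 TPM in TH17 DMSO cultures, and Foxp3 averaged 130 TPM in Treg DMSO cultures. Of the markers of other cell types, Ncr1 of natural killer cells was listed at 0 in all 12 libraries, and Ms4a1 of B cells and Lyz2 of myeloid cells did not pass 0.36 and 0.06 TPM in any of them. Other genes on those marker lists were well above the detection filter, and 4 of 8 markers of CD8 T and natural killer cells, 3 of 10 myeloid and 3 of 8 B cell markers were tested. Klrd1 averaged 42.8 and 88.9 TPM in TH17 DMSO and Srci1 and 2.87 and 2.96 in Treg, Eomes 1.16 and 0.53 in TH17 and 15.3 and 13.4 in Treg, and Cd74 38.4 and 55.5 in TH17 and 118 and 115 in Treg. Bulk RNA cannot tell fewer cells of a kind from less RNA per cell. Ribosomal protein transcripts took 31.1% ± 2.27 (SD, n = 3) of all TPM in TH17 DMSO, 24.3% ± 0.65 in TH17 Srci1, 27.5% ± 0.22 in Treg DMSO and 22.8% ± 0.55 in Treg Srci1 libraries. TPM are shares of a fixed total. The median tested gene stood 0.22 (log2) higher with Srci1 in TH17, 0.12 higher in Treg and 0.13 higher in the difference, and 0.12, 0.06 and 0.08 higher once TPM were rescaled with ribosomal protein and mitochondrial genes left out. The TH17 DMSO libraries ranged from 29.0% (library 1) to 33.5% (library 3) ribosomal protein. The median difference was 0.07 without library 3 and 0.17 without library 1. Read depth is not known from TPM. Nothing in the labels says that replicates were separate cultures or animals, so p-values measure the spread between these libraries only.

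Srci1 changed 5246 genes in TH17 and 3501 in Treg cultures, and the cultures agreed on direction far more often than they disagreed, but 14.6% of tested genes responded to a different extent or in a different direction. The test was limma on log2(TPM + 1), with a call at a Benjamini-Hochberg adjusted p under 0.05. Fold changes below are ratios of mean TPM, and log2 effects are on the log2(TPM + 1) scale, which understates change in low genes. The difference was higher (more positive in TH17) for 1434 genes, 11.5% of those tested, and lower for 377 genes, 3.03%. With median-of-ratios scaling, which centres the libraries on their typical gene, the split was 1127 higher against 700 lower, and with quantile normalization 1086 against 824. In TH17 cultures 4348 genes (34.9%) rose and 898 (7.22%) fell, and in Treg cultures 2221 (17.8%) rose and 1280 (10.3%) fell. The median-of-ratios counts were 2150 up and 2109 down in TH17, and 1368 up and 1752 down in Treg.

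Sorted by the 3 calls, 2136 genes were called in both cultures: 1501 up in each, 447 down in each and 188 (1.51%) in opposite directions. Of the 188, 181 had no overlap between Srci1 and DMSO libraries in either culture. Over all tested genes, separation within 1 culture was found for 40.4% higher and 9.45% lower in TH17, and for 35.0% higher and 16.2% lower in Treg. These are shares for each culture alone, and the share separated in opposite directions was not counted. A shared response, called in both cultures with no call on the difference, was found for 1302 genes up and 320 down, and for 1543 of these 1622 the 95% interval of the difference lay within 1 log2 unit of 0. A culture-specific response needs a call on the difference and in 1 culture only. It was found for 650 genes up (5.22%) and 149 down (1.2%) in TH17, and for 134 up (1.08%) and 328 down (2.64%) in Treg, 3.71% for Treg in all. Another 326 genes moved the same way in both but by different amounts, 206 more in TH17 and 120 more in Treg. For 2311 genes called in TH17 alone and 903 called in Treg alone the difference was not called, so these count as unresolved. Across the 12445 genes the effects had a Pearson r of 0.409 and a Spearman rho of 0.429. That is a description over genes, which are not replicates, and the effects share no library.

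**Figure D1:**
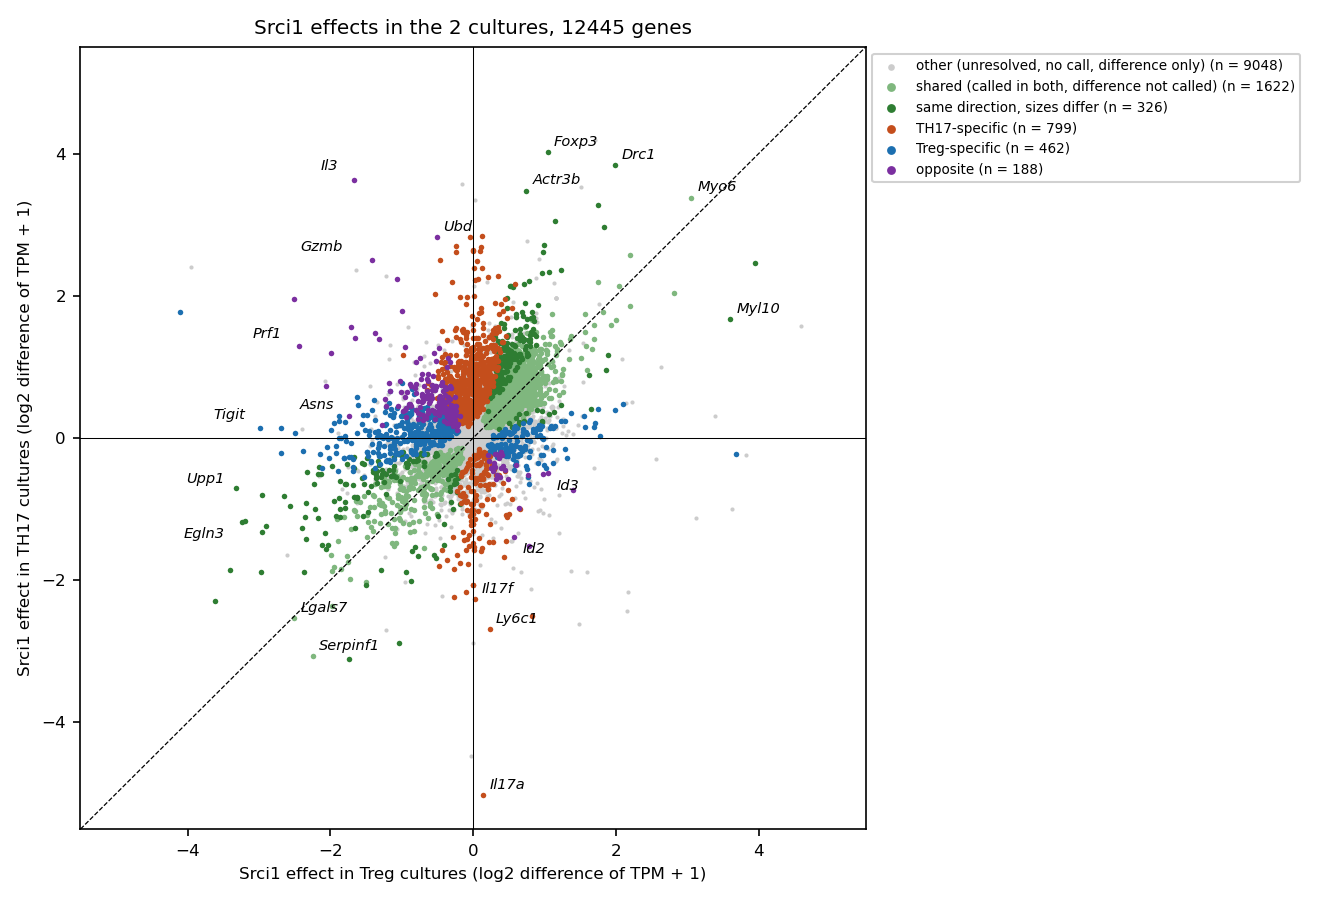
Srci1 effect in Treg cultures (x axis) against TH17 cultures (y axis), both as log2 differences of TPM + 1, one point for each of 12445 genes, coloured by response class. Il17a and Il17f lie far below 0 on the TH17 axis only, Tigit far left on the Treg axis, Foxp3 and Myo6 high on both, and Gzmb, Il3 and Prf1 in the corner of opposite responses.

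The genes named for each class are those of largest difference (for shared genes, of largest smaller effect) among genes with a mean of at least 5 TPM in 1 group and no overlap of libraries where called. Of those that rose in TH17 and fell in Treg cultures they were Il3, a haematopoietic growth factor, Gzmb and Prf1, which encode the granule enzyme granzyme B and the pore protein perforin, the protease inhibitors Serpina3f and Serpina3g, and Ubd, a ubiquitin-like modifier. This class held 159 genes, 1.28% of those tested. Il3 (chr11:54265303-54267277, GRCm38) read 0.25, 1.5 and 0.78 TPM in the TH17 DMSO libraries and 25.6, 17.5 and 20.1 with Srci1, and in Treg 39.9, 46.8 and 44.6 with DMSO and 14.2, 11.6 and 13.6 with Srci1. The groups did not overlap in either culture. The mean rose 25.0-fold in TH17 and fell to 0.30 of control in Treg, a difference of 5.29 ± 0.31 log2 (SE, adjusted p 1.34e-06).

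Gzmb (chr14:56258838-56262260) started from very unequal levels, 6.51, 6.94 and 7.07 TPM in TH17 DMSO against 1244, 1290 and 1302 in Treg DMSO. With Srci1 it read 45.6, 41.3 and 44.2 in TH17 and 470, 498 and 462 in Treg, so the cultures moved toward each other and stayed about an order of magnitude apart. The difference was 3.93 ± 0.08 log2 (adjusted p 1.5e-10). Prf1 did likewise, from 0.52, 0.66 and 1.08 to 3.48, 3.74 and 2.66 TPM in TH17 and from 17.1, 14.8 and 15.3 to 2.39, 1.86 and 2.02 in Treg (difference 3.74 ± 0.22, adjusted p 1.38e-06). With Srci1, perforin transcript was thus higher in TH17 than in Treg libraries without overlap, the reverse of the controls.

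Serpina3f went from 1.64 ± 0.23 to 9.21 ± 0.36 TPM in TH17 and from 47.3 ± 2.78 to 7.5 ± 0.41 in Treg (difference 4.46 ± 0.14). Serpina3g went from 20.1 ± 2.37 to 98.1 ± 3.59 and from 207 ± 12.2 to 98.6 ± 10.8 (difference 3.30 ± 0.14). These are close paralogs, between which RSEM divides shared reads, so their separate levels are uncertain. Ubd rose from 34.9, 28.8 and 26 to 224, 206 and 220 TPM in TH17 and fell from 63.6, 62.4 and 58.3 to 46.1, 40.6 and 42.1 in Treg, a 7.26-fold rise against a fall to 0.70 of control (difference 3.34 ± 0.14, adjusted p 5.16e-08). All 6 genes stayed in this class under median-of-ratios scaling, quantile normalization and rescaling without ribosomal protein and mitochondrial genes, but of the 159 genes only 66 did so under all 3.

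The reverse pattern, down in TH17 and up in Treg, held 29 genes (0.233%), of which 12 remained under all 3 scalings. Its leading members were the chemokine receptor Ccr2, the inhibitors of DNA binding Id2 and Id3, which block E protein transcription factors, the membrane protein Ifitm1, Armc6, and the phospholipase Pla2g4f. Id2 (chr12:25093799-25097140) read 297, 299 and 309 TPM in TH17 DMSO and 124, 112 and 108 with Srci1, and rose in Treg from 76.4, 75.9 and 80.2 to 116, 114 and 118. The DMSO cultures stood far apart in Id2 and the Srci1 cultures overlapped (difference -1.96 ± 0.08, adjusted p 5.16e-08). Id3 fell from 20.9, 27.6 and 27.7 to 17.1, 18.9 and 16.9 TPM in TH17 and rose 2.1-fold in Treg, from 35.4, 37.6 and 34.1 to 74.6, 75.9 and 74.2 (difference -1.54 ± 0.14, adjusted p 5.1e-05). For Id3 the cultures moved apart.

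Ccr2 fell from 11.8, 8.25 and 6.53 to 2.26, 2.08 and 2.81 TPM in TH17 and rose in Treg from 0.22, 0.41 and 0.06 to 1.45, 1.03 and 0.88, a low level throughout (difference -2.30 ± 0.29). Its Treg rise missed the threshold without Treg DMSO library 3 or Treg Srci1 library 1 (adjusted p 0.0561). Ifitm1 went from 38.8 ± 2 to 27 ± 0.94 TPM in TH17 and from 24.5 ± 6.03 to 48.4 ± 1.83 in Treg (difference -1.49 ± 0.18). Armc6 and Pla2g4f changed less, with differences of -1.06 ± 0.22 and -0.97 ± 0.17. The Treg rise of Armc6 was lost in 6 fits that left out 1 library and under all 3 scalings (adjusted p up to 0.137), and its TH17 fall without TH17 Srci1 library 1 (0.0544). The TH17 fall of Pla2g4f was lost without TH17 DMSO library 2 or TH17 Srci1 library 1 (adjusted p 0.0809 and 0.0845). Pla2g4f was a Treg transcript, at 8.87 ± 0.70 TPM in Treg DMSO and 0.70 ± 0.12 in TH17 DMSO.

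**Figure D2:**
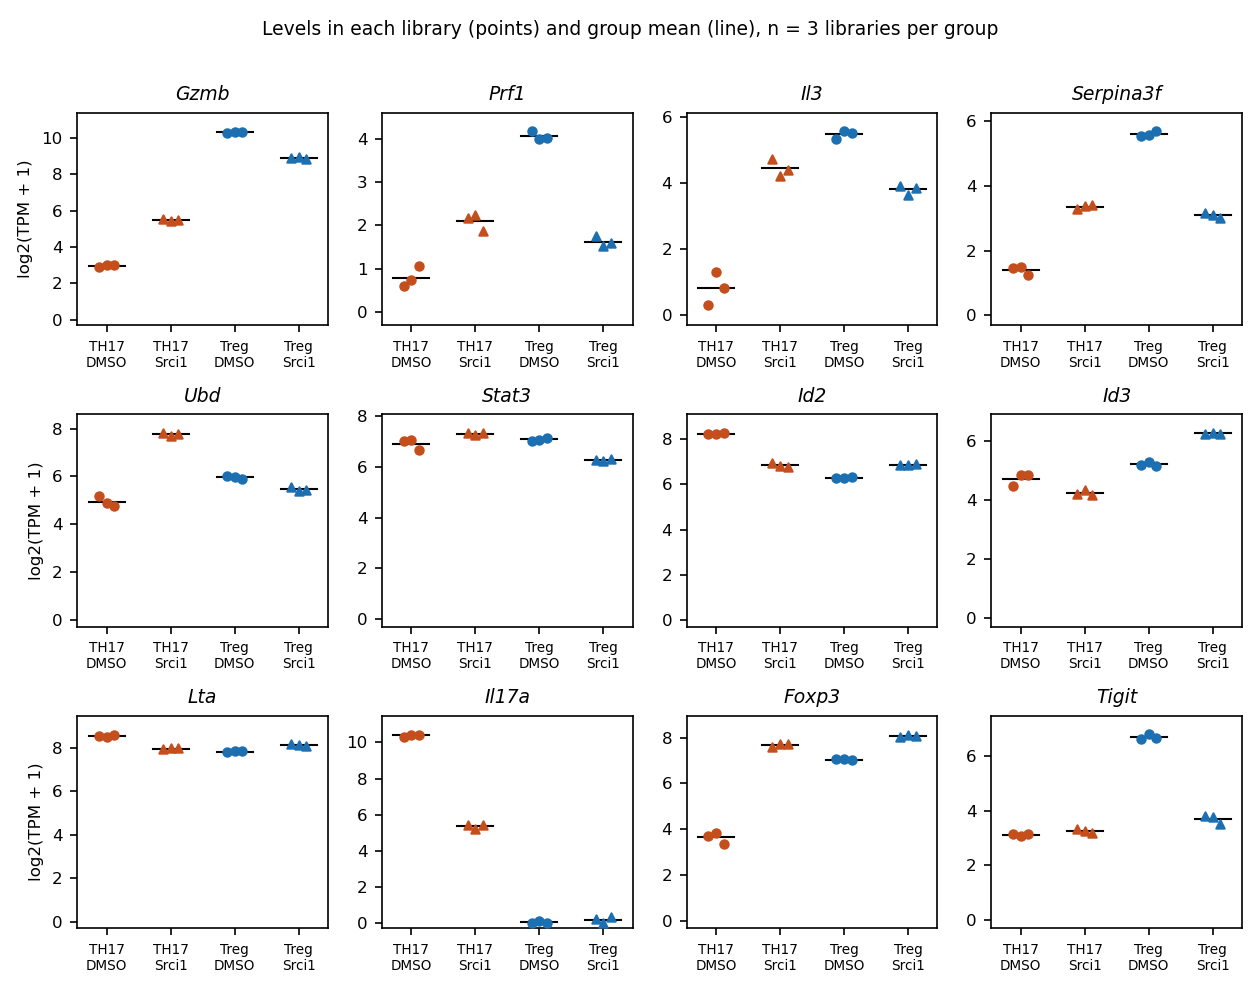
log2(TPM + 1) of 12 genes in each library (points, n = 3 per group, line at the mean of the points), TH17 in orange and Treg in blue, DMSO as circles and Srci1 as triangles. Gzmb, Prf1, Il3, Serpina3f, Ubd and Stat3 rise in TH17 and fall in Treg, Id2, Id3 and Lta do the reverse, Il17a falls in TH17 alone, Tigit falls in Treg alone, and Foxp3 rises in both.

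Responses called in TH17 cultures alone included the lineage cytokines. Il17a (chr1:20730905-20734496) read 1280, 1356 and 1378 TPM in TH17 DMSO and 42, 36.5 and 42.5 with Srci1, 33.1-fold lower, and did not exceed 0.24 TPM in any Treg library. Il17f fell from 2646, 2429 and 2579 to 552, 518 and 524 TPM, 4.8-fold lower, and did not exceed 0.83 TPM in Treg. The differences of -5.17 ± 0.15 and -2.29 ± 0.21 (adjusted p 2.83e-09 and 4.31e-05) therefore describe genes that Treg cultures barely made. That held for 50 of the 149 genes of this class, under 1 TPM in both Treg groups, against 47 of the 650 that rose in TH17 alone.

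Other genes that fell in TH17 alone were the surface proteins Ly6c1 (173 ± 4.98 to 26.5 ± 6.52 TPM, against 8.63 ± 1.65 and 10.4 ± 2.41 in Treg) and Ly6g (88.2 ± 8.1 to 18.8 ± 0.35, near 0 in Treg), members of a family of close paralogs. Nebl, which encodes an actin-binding protein, fell 6.36-fold, from 11.7, 18.4 and 12.2 to 1.36, 2.3 and 2.98 TPM, and lay between 1.05 and 2.63 TPM in the 6 Treg libraries. Enpp2, which encodes the enzyme autotaxin, fell from 17.2 ± 2.38 to 5.6 ± 1.05 TPM and did not exceed 0.40 TPM in Treg.

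On the rising side, the named TH17-specific genes were Il9, Tead1, Acox2, Fam107a, S100a4 and St3gal6. Tead1, a transcription factor of the Hippo pathway, rose from 2, 0.64 and 0.31 to 13.8, 10.5 and 12.8 TPM, which matched the level in Treg libraries (10.6 to 15.5 TPM with or without Srci1). The difference was 2.72 ± 0.36 (adjusted p 0.000493). S100a4, a calcium-binding protein of effector and memory cells, rose from 5.88, 5.72 and 7.81 to 39.1, 53.5 and 49 TPM and read 52.6 to 79 TPM in Treg (difference 2.58 ± 0.23, adjusted p 4.2e-05). In these cases Srci1 brought TH17 cultures near a level that Treg cultures had already.

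Il9, the cytokine of TH9 cells, rose from 8.49, 4.23 and 7.09 to 52.3, 41.6 and 40.3 TPM, 6.78-fold, while 4 of 6 Treg libraries listed it at 0. Its difference of 2.86 ± 0.46 was not called with a pseudocount of 0.1 (adjusted p 0.125). Acox2, a peroxisomal oxidase, rose from 0.79 ± 0.16 to 10.3 ± 2.12 TPM and Fam107a from 1.06 ± 0.12 to 11.8 ± 1.05, and both were listed at 0 in all 6 Treg libraries. St3gal6, a sialyltransferase, rose from 0.93 ± 0.70 to 6.61 ± 1.39 TPM, with Treg libraries spread from 1.46 to 5.4.

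Among the named genes that fell in Treg cultures alone, the largest difference on the log2(TPM + 1) scale was in Tigit, an inhibitory receptor of regulatory and exhausted T cells. It read 97.1, 109 and 99.3 TPM in Treg DMSO and 13, 12.7 and 10.2 with Srci1, 8.5-fold lower, and 7.41 to 9.12 TPM in the 6 TH17 libraries (difference 3.14 ± 0.14, adjusted p 1.12e-07). Atf3, a stress-induced transcription factor, fell from 22, 32.5 and 20.5 to 5.5, 3.21 and 2.37 TPM, and the TH17 libraries lay between 4.09 and 5.83. Il12rb2, a chain of the IL-12 receptor, fell from 54.8 ± 2.61 to 9.67 ± 0.73 TPM in Treg and was 27.9 ± 8.3 and 23.8 ± 2.79 in TH17. Hsf2bp fell 14.7-fold, from 10.5 ± 3.93 TPM to the level of TH17 libraries, 0.71 ± 0.032. Lyrm9 fell 3.11-fold and the glycine transporter Slc6a9 fell 4.37-fold, with differences of 2.21 ± 0.39 and 2.19 ± 0.42.

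Genes that rose in Treg alone numbered 134 (1.08%). Tcrg-C1, a constant segment of the T cell receptor γ chain, went from 6.59, 7.05 and 7.7 to 33.9, 28.3 and 31.6 TPM in Treg, and from 4.58 ± 0.86 to 6.58 ± 2.47 in TH17. The γδ T cell markers Trdc, Sox13 and Blk stayed at 1.12 TPM or below in every library, with a summed level of 0.55 to 1.74 TPM in Treg DMSO and 0.67 to 1.14 in Treg Srci1. Nsg2, which encodes a membrane protein, rose from 9.17, 11.1 and 10.1 to 25.7, 26 and 26.7 TPM in Treg and stayed between 7.48 and 10.3 TPM in TH17 (difference -1.44 ± 0.16, adjusted p 0.000183).

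The inhibitory receptor Lilrb4a rose 3.03-fold in Treg, from 2.79 ± 0.41 TPM, while TH17 libraries ranged from 24.4 to 47.5 TPM. St6galnac2, a sialyltransferase, rose 2.56-fold and the membrane protein gene Ms4a6c 5.5-fold in Treg. Dapl1 rose from 11.5 ± 0.82 to 39.7 ± 4.16 TPM, but its difference of -1.54 ± 0.42 was lost without TH17 DMSO library 3, any Treg DMSO library, or Treg Srci1 library 1 or 3, with an adjusted p of up to 0.0987 over all alternatives. With a pseudocount of 0.1 the difference in Ms4a6c was not called either (adjusted p 0.0638).

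Foxp3 (chrX:7573644-7595245) rose in both cultures, and far more in TH17. It read 12.2, 13.6 and 9.37 TPM in TH17 DMSO and 194, 208 and 209 with Srci1, a 17.4-fold rise, and in Treg 131, 131 and 127 with DMSO and 257, 279 and 270 with Srci1, a 2.07-fold rise. TH17 cultures with Srci1 thus had more Foxp3 transcript than Treg controls, without overlap, and less than Treg cultures with Srci1. The difference was 2.98 ± 0.14 (adjusted p 2.34e-07). Actr3b, a subunit of the actin-nucleating Arp2/3 complex, went from 5.45 ± 1.02 to 70.3 ± 2.12 TPM in TH17 (12.9-fold) and from 17.4 ± 0.56 to 29.9 ± 1.67 in Treg (1.72-fold). Coro2a, an actin-binding coronin, rose 9.46-fold and 2.23-fold, and Klf3, a transcription factor of quiescent lymphocytes, rose 8.67-fold and 2.04-fold.

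Drc1, a component of cilia, was close to 0 in TH17 DMSO (0.10, 0.30 and 0.29 TPM), reached 18.4, 16.4 and 15 with Srci1, and rose from 17.3, 20.2 and 20.5 to 75.1, 101 and 66.8 TPM in Treg. Vax2, a homeobox gene, fell in both, from 7.8 ± 1.99 to 0.18 ± 0.16 TPM in TH17 and from 3.51 ± 0.45 to 1.19 ± 0.18 in Treg. Il21, a cytokine of TH17 and follicular helper cells, fell 3.77-fold in TH17, from 238, 210 and 168 to 61.5, 48.7 and 53.1 TPM. In Treg it fell from 0.86, 1.16 and 0.80 TPM to 0, 0 and 0.02. The order of these effects depends on the scale at such low levels: the difference was -0.94 ± 0.20 with a pseudocount of 1 and turned to 1.37 with a pseudocount of 0.1, called each time (adjusted p 0.00802 and 0.00491).

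Where both cultures fell and Treg fell more, Upp1, Rn7sk and Egln3 stood first. Upp1, uridine phosphorylase, went from 303 ± 20.7 to 187 ± 13.5 TPM in TH17 and from 33.4, 27.8 and 26.9 to 1.99, 2.75 and 1.48 in Treg, 14.2-fold lower. Egln3, a hypoxia-induced prolyl hydroxylase, went from 390, 374 and 346 to 163, 162 and 163 in TH17 (2.27-fold) and from 156, 153 and 155 to 16.3, 15.5 and 15 in Treg (9.93-fold). The integrin chain Itga7 fell 2.32-fold in TH17 and 23.7-fold in Treg, and the gap junction gene Gja1 1.43-fold and 6.75-fold. The TH17 fall of Gja1 was lost without TH17 DMSO library 1 or 2 or TH17 Srci1 library 2 (adjusted p up to 0.0698). Rn7sk, the 7SK small nuclear RNA, fell from 801 ± 24.6 to 103 ± 14.1 TPM in Treg and from 112 ± 22 to 65.3 ± 22.5 in TH17. 7SK lacks a poly(A) tail in textbook accounts and these libraries were poly(A)-selected, so how its level arises here was not tested. Myl10, a myosin light chain, was the one leading gene of this group that rose, 9.1-fold in TH17 and 18.4-fold in Treg, and its difference was not called with a pseudocount of 0.1 (adjusted p 0.134).

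Shared responses were led by the unconventional myosin Myo6, which read 21.5, 16.2 and 17.5 TPM in TH17 DMSO, 198, 199 and 204 with Srci1, 16.5, 18 and 17.5 in Treg DMSO and 174, 120 and 166 with Srci1. The rises of 10.9-fold and 8.84-fold left a difference of 0.33 log2 with a 95% interval from -0.08 to 0.73 (adjusted p 0.272). Nrep rose 9.75-fold in TH17 and 4.72-fold in Treg, the kinase gene Sgk3 4.66-fold and 4.63-fold, and Tcrg-C4 17.5-fold and 5.3-fold. Pet117, an assembly factor of cytochrome oxidase, was listed at 0 in all 3 TH17 DMSO libraries and reached 5.05 ± 1.19 TPM with Srci1, and went from 0.11 ± 0.20 to 4.09 ± 0.31 in Treg. Hba-a1, an α-globin gene with a near-identical copy, rose from 0.32 ± 0.56 to 4.27 ± 1.31 TPM in TH17 and from 2.17 ± 1.1 to 20.8 ± 4.5 in Treg, and of the other red cell markers Hbb-bs stayed below 5 TPM and Alas2 below 1 TPM.

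Among genes that fell in both, Lgals7, a galectin, fell 7.43-fold in TH17 (from 20.9 ± 5.35 TPM) and 5.79-fold in Treg (from 142 ± 17.3 TPM). Plek, pleckstrin, fell 4.32-fold and 4.24-fold, Cavin3 9.78-fold and 4.93-fold, Galnt14 14.6-fold and 5.29-fold, and Fam183b 4.62-fold and 17.1-fold. Serpinf1, a secreted serpin, read 177, 174 and 177 TPM in TH17 DMSO and 18.4, 19.6 and 22.4 with Srci1, and fell in Treg from 9.76, 9.11 and 17.3 to 1.69, 0.89 and 2.66. Its difference of -0.82 log2 had an interval from -1.58 to -0.07 and was not called (adjusted p 0.138). Il2ra, the high-affinity IL-2 receptor chain, rose in each culture, from 692 ± 109 to 1208 ± 70.7 TPM and from 727 ± 6.08 to 1066 ± 37.8 (difference 0.26 ± 0.13, interval -0.03 to 0.55).

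Stat3 transcript (chr11:100885098-100939540) moved in opposite directions. It read 130, 133 and 99.8 TPM in TH17 DMSO and 158, 152 and 161 with Srci1, and in Treg 130, 134 and 140 with DMSO and 76.1, 75.2 and 78.2 with Srci1. The rise to 1.3-fold in TH17 and the fall to 0.57 of control in Treg gave a difference of 1.19 ± 0.13 (adjusted p 0.000151). The fall in Treg was called under each scaling, while the rise in TH17 was not called after median-of-ratios scaling (adjusted p 0.144). Without TH17 DMSO library 3, the lowest, the difference was 1.06 (adjusted p 9.37e-06). Socs3, a feedback inhibitor that STAT3 induces, rose from 78.6, 88.5 and 80.3 to 151, 157 and 157 TPM in TH17 and read 27.4 to 30.2 TPM in all 6 Treg libraries (difference 0.91 ± 0.09, adjusted p 0.000107).

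The kinases nearest to the compound's name changed little or at very low level. Lck read 385 to 446 TPM in the 12 libraries, with a difference of 0.05 log2 (95% interval -0.10 to 0.20, adjusted p 0.661). Fyn read 79.3 to 104 TPM in TH17 and 139 to 154 in Treg (difference 0.10, interval -0.12 to 0.32, adjusted p 0.561). The sign of both differences turned with the scaling. Src itself was near the detection filter, at 1.00 ± 0.35 and 2.37 ± 0.31 TPM in TH17 and 1.18 ± 0.29 and 1.04 ± 0.29 in Treg, and its difference of 0.86 ± 0.25 (adjusted p 0.0418) was lost in 13 of the 21 alternative fits, 8 of them with a single library left out. In the list of Src family kinases and receptor signalling, 7 of 23 tested genes had a higher and 1 a lower difference (background 11.5% and 3.03%). The lower one was Cd3g, a receptor subunit, down 1.61-fold in TH17 and 1.25-fold in Treg, and the higher ones included Plcg1, a phospholipase, which rose 1.55-fold in TH17 and was not called in Treg.

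Of the amino acid stress genes, 9 rose in TH17 and fell in Treg. The transcription factor ATF4 turns on amino acid transporters, synthetic enzymes and regulators such as Trib3 and Chac1 when amino acids run short. Of 18 tested members, 16 had a higher difference and none a lower one (background 11.5%), 11 rose in TH17 (background 34.9%) and 14 fell in Treg (10.3%). The list's median difference was 0.97 log2 against 0.13 for all genes. After median-of-ratios scaling 15 were still higher, but 4 rose in TH17, 16 fell in Treg and 4 were opposite, so the fall in Treg held and most of the rise in TH17 did not.

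Nupr1, a stress-induced chromatin protein, read 5.75, 4.42 and 5.88 TPM in TH17 DMSO and 18.1, 15.2 and 16.4 with Srci1, and in Treg 17.1, 13.6 and 15.9 with DMSO and 5.76, 5.34 and 5.03 with Srci1. The 2 cultures exchanged levels, a difference of 2.85 ± 0.18 (adjusted p 2.75e-06), and Nupr1 kept its class under all 3 scalings. Trib3, a pseudokinase that feeds back on ATF4, also kept it: 9.17, 11.9 and 11.6 to 21, 27.2 and 23.7 TPM in TH17, and 22.6, 19.1 and 24.2 to 12.3, 11.6 and 12.5 in Treg (difference 1.87 ± 0.18, adjusted p 6.56e-05). Asns, asparagine synthetase, fell 3.4-fold in Treg, from 82.7, 82.3 and 86.5 to 24.3, 28.7 and 21 TPM. Its TH17 rise from 42.6 ± 5.44 to 53.1 ± 2.43 TPM was lost in 9 of 12 fits that left out 1 library, all 3 TH17 Srci1 and all 3 Treg DMSO libraries among them (adjusted p up to 0.143), and under all 3 scalings (up to 0.738).

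Slc7a5, the large neutral amino acid transporter, rose 1.27-fold in TH17 and fell 1.69-fold in Treg, and Ddit4, an inhibitor of mTORC1, fell 2.17-fold in Treg alone. Chac1, which degrades glutathione, fell from 4.29, 6.07 and 6.43 to 0.82, 1.54 and 1.7 TPM in Treg and was not called in TH17 (difference 1.82 ± 0.29, adjusted p 0.0018). Atf4 itself shifted by little, from 194 ± 6.24 to 241 ± 5.68 TPM in TH17 and from 228 ± 5.32 to 201 ± 5.78 in Treg, and its difference of 0.49 ± 0.07 was not called after median-of-ratios scaling (adjusted p 0.0605). Its TH17 rise was not called there either (0.701), and its Treg fall was lost without Treg DMSO library 1 or 2 or Treg Srci1 library 3 (0.0567 to 0.0654).

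Promoters of 17 of these genes were in the RefSeq table (GRCm38.p6), and the 250 bases before the start site were searched on both strands for the C/EBP-ATF element, spelled TGATGNAA, at which ATF4 binds in textbook accounts. The letters were found in 4 of 17 promoters (23.5%), against 218 of 9124 promoters of tested genes (2.4%). A match is a description of letters, not a bound site. The 120-base windows below, 5′ to 3′ on the gene's strand, show the element in capitals (its reverse complement in Nupr1 and Chac1) for 3 genes whose values are given above: Nupr1, chr7:126625517-126625636, minus strand, Asns, chr6:7693210-7693329, minus strand, and Chac1, chr2:119350993-119351112, plus strand.
Nupr1: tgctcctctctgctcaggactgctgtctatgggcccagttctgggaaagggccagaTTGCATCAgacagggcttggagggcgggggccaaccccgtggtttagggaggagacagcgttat
Asns: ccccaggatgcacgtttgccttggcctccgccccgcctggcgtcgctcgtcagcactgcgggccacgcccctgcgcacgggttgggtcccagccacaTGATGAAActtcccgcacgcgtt
Chac1: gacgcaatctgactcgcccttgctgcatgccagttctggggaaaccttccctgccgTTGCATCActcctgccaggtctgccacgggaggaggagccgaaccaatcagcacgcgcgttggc

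Interferon-stimulated genes likewise had higher differences, 12 of 16 (background 11.5%) with none lower, but mostly through a fall in Treg. There 11 fell and 1 rose (background 10.3% and 17.8%). In TH17 5 rose, a share near the 34.9% of all tested genes. After median-of-ratios scaling the counts were 10 higher, 12 down in Treg, and 3 up and 2 down in TH17. Irf7, the factor that amplifies interferon production, fell from 15.1 ± 1.11 to 6.42 ± 0.44 TPM in Treg and Ifi27l2a from 1864 ± 69.6 to 979 ± 56.6. Neither was called in TH17.

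Stat2, a transcription factor of the interferon pathway, rose in TH17 from 18.6, 16 and 9.85 to 31, 25.8 and 26.4 TPM and was not called in Treg (35.5, 35.2 and 34.2 to 26.8, 23.1 and 27.7 TPM, adjusted p 0.0929). The guanylate-binding protein Gbp2 was opposite, up from 336 ± 27.1 to 492 ± 22.3 TPM in TH17 and down from 707 ± 16.1 to 524 ± 25.2 in Treg (difference 0.98 ± 0.09, adjusted p 4.21e-05). Gbp3 rose 2.02-fold in TH17 alone. Gbp2 and Gbp3 belong to a family of similar genes.

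The interferon-stimulated response element, searched as 2 copies of GAAA with any 2 bases between them, was found in 6 of 10 promoters of the list (60%) and in 303 of 9124 (3.3%). The windows below give it for Gbp2, chr3:142620543-142620662, Gbp3, chr3:142559924-142560043, and Stat2, chr10:128270248-128270367, all plus strand in GRCm38.p6, printed on the gene's strand. The element lies on the opposite strand in each, so the capitals show its reverse complement. Gbp3 holds 2 overlapping copies.
Gbp2: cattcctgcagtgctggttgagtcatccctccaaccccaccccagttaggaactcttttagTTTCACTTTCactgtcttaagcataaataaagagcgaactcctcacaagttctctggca
Gbp3: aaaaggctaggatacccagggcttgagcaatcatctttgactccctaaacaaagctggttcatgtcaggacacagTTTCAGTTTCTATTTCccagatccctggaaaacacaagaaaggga
Stat2: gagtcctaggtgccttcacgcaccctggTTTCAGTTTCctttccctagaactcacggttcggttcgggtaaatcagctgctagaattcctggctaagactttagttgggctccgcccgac

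Cholesterol synthesis genes rose in both cultures and more so in TH17. All 24 tested members rose in TH17 (34.9% of all tested genes) and 17 rose in Treg (17.8%). The difference was higher for 18 (11.5%) and lower for none. The median effect was 1.11 log2 in TH17 and 0.54 in Treg, against 0.22 and 0.12 for all genes. With median-of-ratios scaling 14 differences were higher, 23 genes rose in TH17, and 15 rose and 1 fell in Treg. Hmgcs1, the synthase that precedes HMG-CoA reductase, rose from 62.3, 53.4 and 50.1 to 185, 142 and 158 TPM in TH17 (2.92-fold) and from 126, 128 and 133 to 204, 187 and 195 in Treg (1.51-fold). The DMSO cultures differed more than 2-fold in Hmgcs1 and the Srci1 cultures were closer (difference 0.94 ± 0.14, adjusted p 0.00101). Fdps, which makes farnesyl diphosphate, rose 2.06-fold and 1.19-fold, and the Treg rise was lost under median-of-ratios scaling (adjusted p 0.336), after rescaling (0.0781) and without Treg DMSO library 1 or 2 (0.0587 and 0.0601). Pmvk and Tm7sf2, enzymes of the early and late pathway, rose 1.82-fold and 2.38-fold in TH17 and were not called in Treg.

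Srebf2, which encodes the sterol-sensing transcription factor of this pathway, rose from 135 ± 17.9 to 196 ± 4.78 TPM in TH17 and read 172 to 193 TPM in all 6 Treg libraries (difference 0.63 ± 0.12, adjusted p 0.00466). The sterol regulatory element, searched as TCACNCCAC, was found in 1 of 17 promoters of the list (5.9%) and in 109 of 9124 (1.2%). That promoter was Hmgcs1, chr13:119690158-119690277, plus strand, GRCm38.p6, with the element in capitals.
Hmgcs1: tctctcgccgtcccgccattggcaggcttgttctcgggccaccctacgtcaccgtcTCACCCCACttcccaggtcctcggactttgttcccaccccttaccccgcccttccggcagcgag

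Fatty acid genes followed in TH17 and parted in Treg: 12 of 13 rose in TH17 (34.9% of all tested genes). In Treg 5 rose and 2 fell (17.8% and 10.3%), and 8 differences were higher (11.5%). Fads2, a desaturase, rose from 29.3, 28.9 and 25.3 to 75.5, 77.3 and 72.9 TPM in TH17 and read 43.5 to 47 TPM in Treg whatever the treatment (difference 1.36 ± 0.10, adjusted p 7.09e-06). Scd2, another desaturase, rose from 281 ± 51.6 to 448 ± 22.8 TPM in TH17 and fell from 415 ± 8.06 to 319 ± 11.7 in Treg, as did Srebf1, the transcription factor gene of fatty acid synthesis (70.5 ± 2.69 to 96.9 ± 7.78 and 88.3 ± 5.61 to 73.8 ± 3.41 TPM). The fall of Scd2 in Treg was lost without Treg DMSO library 1 or 2 or Treg Srci1 library 1 (adjusted p up to 0.0674), and that of Srebf1 without Treg DMSO library 2 or 3 or Treg Srci1 library 1 or 3 (up to 0.103).

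Glycolytic and hypoxia-induced genes fell in Treg without exception, 23 of 23 (background 10.3%), and 13 of 23 fell in TH17 (background 7.22%). The difference was higher for 21 (background 11.5%), of which 12 fell less in TH17 than in Treg and 9 fell in Treg with no call in TH17. After median-of-ratios scaling 22 fell in TH17, all 23 fell in Treg, and 15 differences were higher. Slc16a3, the lactate exporter, went from 356, 384 and 280 to 219, 241 and 250 TPM in TH17 and from 350, 335 and 314 to 70.2, 80.6 and 74.7 in Treg (1.44-fold against 4.43-fold lower). Aldoa, aldolase, fell 1.18-fold and 2.02-fold from 2047 ± 80.9 and 1954 ± 38 TPM (in TH17 not called after quantile normalization, adjusted p 0.713), and Bnip3, a hypoxia-induced mitochondrial protein, 1.8-fold and 3.74-fold. Pfkp, a phosphofructokinase, fell from 303 ± 8.23 to 108 ± 4.72 TPM in Treg. Its fall in TH17 was lost without TH17 DMSO library 1 or 2, TH17 Srci1 library 1 or 2, or Treg DMSO library 3 (adjusted p up to 0.124). The core of the hypoxia response element, ACGTG, was found in 12 of 21 promoters (57.1%) and in 2349 of 9124 (25.7%).

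**Figure D3:**
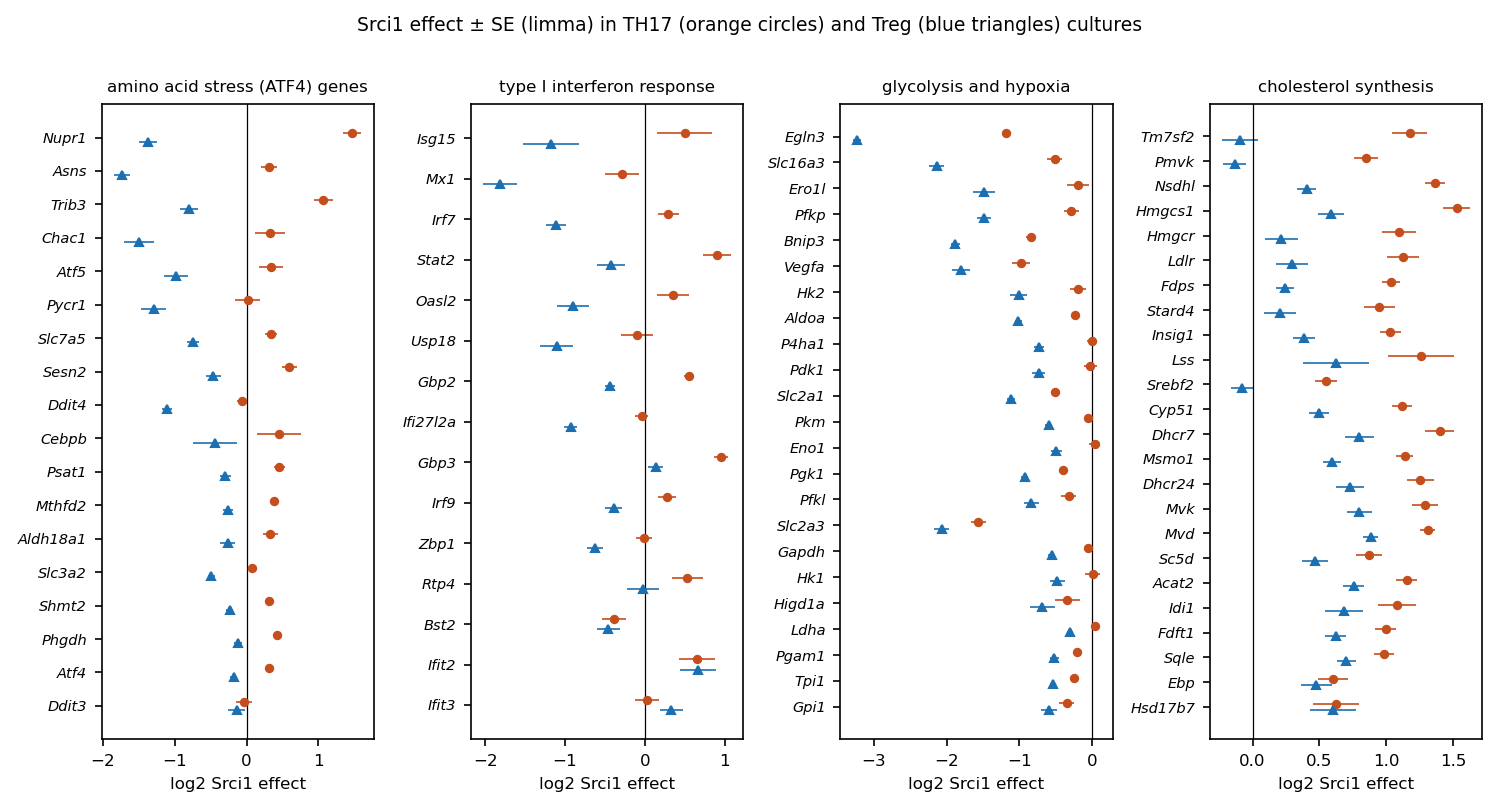
Srci1 effect (log2 difference of TPM + 1, points, with SE bars) for the tested members of 4 lists (1 interferon gene is not plotted), TH17 as orange circles and Treg as blue triangles. Treg points lie left of the TH17 point for nearly all members, across 0 from it for most amino acid stress genes, below 0 for all 23 glycolysis genes, and TH17 points lie above 0 for all 24 cholesterol genes.

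TH1 and cytotoxic genes fell in Treg and were divided in TH17. Of 18, 11 fell and 1 rose in Treg (10.3% and 17.8% of all tested genes). In TH17, 7 rose and 6 fell (34.9% and 7.22%), and 13 differences were higher and 1 lower (11.5% and 3.03%). The lower one was Gzma, another granzyme gene, which fell in TH17 and was not called in Treg (difference -1.59, limma adjusted p 0.0261). Ccl3, Ccl4 and Fasl also fell in TH17, and fell more in Treg. Tbx21, which encodes the TH1 master regulator T-bet, fell from 45.6, 46.4 and 43.1 to 13.3, 11.9 and 10.4 TPM in Treg and stayed under 1 TPM in all TH17 libraries. Ifng fell from 25, 26.6 and 23.1 to 5.02, 14.3 and 5.67 TPM in Treg, and was 2.25 TPM or lower in TH17. Xcl1, which encodes the chemokine lymphotactin, rose in TH17 alone (3.55 ± 1.47 to 16.7 ± 3.99 TPM). Among CD8 and natural killer cell markers, 3 of 8 were under 1 TPM in all 12 libraries, Cd8a did not pass 1.23 TPM, and the summed level was 50.0 to 53.2 TPM in TH17 DMSO, 89.8 to 118 in TH17 Srci1, 37.3 to 39.2 in Treg DMSO and 23.9 to 24.8 in Treg Srci1. The sums include Prf1 and Klrd1, and their part in the result was not tested.

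TH2 and growth factor cytokines had a similar division, with 8 of 12 differences higher and 1 lower (11.5% and 3.03% of all tested genes). In TH17, 7 rose and 2 fell (34.9% and 7.22%), and in Treg 1 rose and 6 fell (17.8% and 10.3%). Besides Il3 and Il9, Il13 rose from 1.34 ± 0.50 to 2.9 ± 0.25 TPM in TH17 and fell from 5.25 ± 1.05 to 2.37 ± 0.13 in Treg, and the chemokine receptor Ccr8 went from 38.2 ± 4.56 to 52.2 ± 1.59 and from 62.9 ± 1.89 to 33.9 ± 1.17. Il1rl1, the IL-33 receptor, rose in TH17 from 0.04 ± 0.036 to 2.57 ± 0.43 TPM and stayed under 1 TPM in Treg.

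T cell receptor-induced genes fell in both cultures: 25 of 28 fell in Treg and none rose (10.3% and 17.8% of all tested genes). In TH17, 15 fell and 4 rose (7.22% and 34.9%). The nuclear receptor Nr4a1, an early reporter of receptor signalling, was shared, down from 192, 200 and 199 to 71.8, 78.1 and 72.9 TPM in TH17 and from 379, 361 and 378 to 133, 134 and 128 in Treg (2.65-fold and 2.82-fold). Nr4a3 fell 1.9-fold and 1.94-fold. Among AP-1 genes, Jun, Fos and Fosb departed from this by rising in TH17, while Junb and Fosl1 fell in Treg alone. Fosb also fell in Treg. Jun rose from 36.8, 40 and 35.6 to 60.5, 61.5 and 65.5 TPM in TH17 and fell from 44.2, 44.2 and 46.8 to 31.2, 31.3 and 31.2 in Treg (difference 1.24 ± 0.09, adjusted p 1.01e-05), and kept its class under all 3 scalings. Fos rose 3.19-fold in TH17 alone, whereas Fosl2 fell 1.81-fold in TH17 and 7.13-fold in Treg. Irf8 fell 1.58-fold and 3.46-fold and Tnfrsf9, the receptor 4-1BB, 1.48-fold and 2.95-fold.

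Lineage programs did not move as blocks. In the TH17 list of 20, 11 fell and 5 rose in TH17 (7.22% and 34.9% of all tested genes). In Treg 9 fell and 2 rose (10.3% and 17.8%), and differences were higher for 6 and lower for 7 (11.5% and 3.03%). The shares that rose were below those of all tested genes. Ccl20, the ligand of CCR6, fell 4.12-fold in TH17 and 1.88-fold in Treg. Il24 fell 4.09-fold in TH17 and went from 2.97 ± 0.90 to 0.21 ± 0.37 TPM in Treg. Il1rn, the IL-1 receptor antagonist, rose from 3.54, 3.73 and 3.73 to 14.6, 12.1 and 11.8 TPM in TH17 and fell in Treg from 1.01, 2.36 and 9.83 to 0.22, 0.34 and 0.29. Treg DMSO library 3 held most of that control level, and without it the difference was 2.58 in place of 3.27.

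In the Treg list of 20, 11 rose and 4 fell in TH17 (34.9% and 7.22% of all tested genes). In Treg 6 rose and 9 fell (17.8% and 10.3%), and 9 differences were higher and none lower (11.5% and 3.03%). Besides Foxp3, Itgae, the integrin CD103, rose from 1.06 ± 0.25 to 8.06 ± 0.76 TPM in TH17 and from 0.30 ± 0.17 to 0.86 ± 0.16 in Treg. The Treg rise was lost without Treg DMSO library 1 or 2 or Treg Srci1 library 2 or 3 (adjusted p up to 0.101), and the difference with a pseudocount of 0.1 (0.0588). Izumo1r, a folate receptor family member, fell in Treg alone, from 334, 333 and 331 to 221, 209 and 196 TPM. The G protein-coupled receptor Gpr83 was shared, up 2.63-fold and 2.42-fold, as was Ikzf2, which encodes Helios, from 0.34 ± 0.17 to 1.65 ± 0.42 and from 1.42 ± 0.76 to 3.17 ± 0.45 TPM. The Treg rise of Ikzf2 was lost without Treg DMSO library 1 or Treg Srci1 library 3 (adjusted p 0.0629 and 0.069). So Foxp3 rose in Treg cultures while Tigit, Izumo1r and Tnfrsf9 of the same list fell there.

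Cytokine signalling lists differed from each other. Among STAT3 targets and IL-6 family receptors 8 of 16 differences were higher and 1 lower (11.5% and 3.03% of all tested genes). Il21r was opposite (112 ± 13 to 159 ± 1.1 TPM in TH17, 105 ± 1.92 to 80.3 ± 2.8 in Treg) and the kinase gene Pim1 rose 1.4-fold in TH17 alone. Among IL-2 and STAT5 response genes 1 of 12 was higher, near the 11.5% of all tested genes, and 5 were lower (3.03%). Lta and Ltb, which encode the lymphotoxins, fell in TH17, from 370 ± 15.5 to 248 ± 7.26 and from 1119 ± 61.1 to 808 ± 42 TPM, and rose in Treg, from 224 ± 3.84 to 280 ± 8.86 and from 691 ± 21.1 to 837 ± 26.6. Their rise in Treg was not called after median-of-ratios scaling (adjusted p 0.117 and 0.276). Socs1 fell 1.52-fold in TH17 alone.

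Of 15 naive and memory genes, 9 rose and 2 fell in TH17 (34.9% and 7.22% of all tested genes). In Treg 10 rose and 3 fell (17.8% and 10.3%), and 7 differences were higher and 3 lower (11.5% and 3.03%). Klf2, a transcription factor of resting T cells, rose 3.13-fold in TH17 and 1.31-fold in Treg, where the call was lost under all 3 scalings (adjusted p 0.0593 to 0.204) and without Treg DMSO library 2 or Treg Srci1 library 1 (0.0615 and 0.0553). Ccr7, the lymph node homing receptor, rose from 369 ± 10.9 to 445 ± 9.79 TPM in TH17 and fell from 720 ± 12 to 420 ± 11.8 in Treg (difference 1.05 ± 0.06), though its TH17 rise was not called after median-of-ratios scaling (adjusted p 0.971). Of 18 chemokine receptor and homing genes 7 differences were higher and 1 lower (11.5% and 3.03% of all tested genes), among them Gpr15, a gut homing receptor, up from 38.8 ± 2.27 to 98.7 ± 4.9 TPM in TH17 and at 0.25 TPM or lower in Treg. Its difference was not called with a pseudocount of 0.1 (adjusted p 0.0727).

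Of 29 cell cycle genes, 24 rose in TH17 and 22 rose and 2 fell in Treg, and 15 differences were higher. Over all tested genes these shares were 34.9% up in TH17, 17.8% up and 10.3% down in Treg, and 11.5% higher. Aurka, a mitotic kinase, rose 2.31-fold and 1.28-fold, Rrm2, a ribonucleotide reductase subunit, 2.6-fold and 1.71-fold, and Mki67 1.93-fold and 1.9-fold. The Treg rise of Mki67 was lost without Treg DMSO library 2 or Treg Srci1 library 3 (adjusted p 0.0537 and 0.0622). Cdkn1a, which encodes the inhibitor p21, fell from 118, 125 and 126 to 51.6, 48.2 and 55.4 TPM in Treg alone (difference 1.27 ± 0.11, adjusted p 3.44e-05). Of 11 p53 targets 5 differences were higher (background 11.5%) and none lower, with Trp53inp1 up 2.32-fold in TH17 alone and Sesn1 up 2.7-fold and 1.61-fold.

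Of 18 checkpoint and co-stimulatory receptors, 10 fell and 5 rose in TH17 (7.22% and 34.9% of all tested genes), 12 fell and none rose in Treg (10.3% and 17.8%), and 5 differences were higher and 1 lower (11.5% and 3.03%). Lag3 fell 2.8-fold and 5.48-fold and Pdcd1, which encodes PD-1, fell 2.55-fold and 2.24-fold. Of 14 NF-kappaB genes 5 differences were higher (background 11.5%) and none lower. In TH17 5 genes rose, a share near the 34.9% of all tested genes, and 4 fell (7.22%). None rose and 8 genes, Nfkb2 among them (208 ± 1.86 to 128 ± 3.74 TPM), fell in Treg (17.8% and 10.3%). Actin and membrane genes rose in 18 of 24 cases in TH17 and 11 in Treg (8 and 6 after median-of-ratios scaling), against 34.9% and 17.8% of all tested genes. In Treg 2 fell, a share near the 10.3% of all tested genes. Differences were higher for 5 (11.5%) and lower for 1, a share near the 3.03% of all tested genes. Among the higher ones was Vcl, vinculin, up 2.67-fold in TH17 alone.

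In the TGF-beta list 4 of 15 differences were higher and 1 lower, against 11.5% and 3.03% of all tested genes, with Skil, a repressor of SMAD signalling, up 2.11-fold in TH17 alone and the co-receptor Tgfbr3 up 2.17-fold in Treg alone. Unfolded protein and heat shock genes had 2 of 18 higher and 1 lower, a share near that background. The 2 were the near-identical Hspa1a and Hspa1b, and Hspa1b rose from 3.34 ± 0.24 to 5.55 ± 0.38 TPM in TH17 and fell from 8.88 ± 0.071 to 5 ± 0.19 in Treg. The TH17 rise of Hspa1a was lost without TH17 DMSO library 1 or 3 or TH17 Srci1 library 2 or 3 (adjusted p up to 0.085), and under all 3 scalings (up to 0.219).

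Nuclear genes of oxidative phosphorylation had no called difference among 20 (limma), which does not show that they responded alike, and 2 of them had an unadjusted p under 0.05. Of 13 mitochondrially encoded genes 3 had a lower difference (background 3.03%) and none a higher one. In Treg 7 were called up, against 17.8% of all tested genes, and in TH17 4 were, against 34.9% (6 and 1 after median-of-ratios scaling). Of those with a called difference, mt-Nd1, a complex I subunit, went from 2547 ± 112 to 4142 ± 235 TPM in Treg and from 2963 ± 291 to 3446 ± 161 in TH17. The TH17 effect of mt-Nd1 turned to -0.04 (log2) after median-of-ratios scaling. Their share of all TPM went from 3.54% ± 0.129 to 4.96% ± 0.478 in Treg and from 3.74% ± 0.541 to 4.46% ± 0.25 in TH17.

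**Figure D4:**
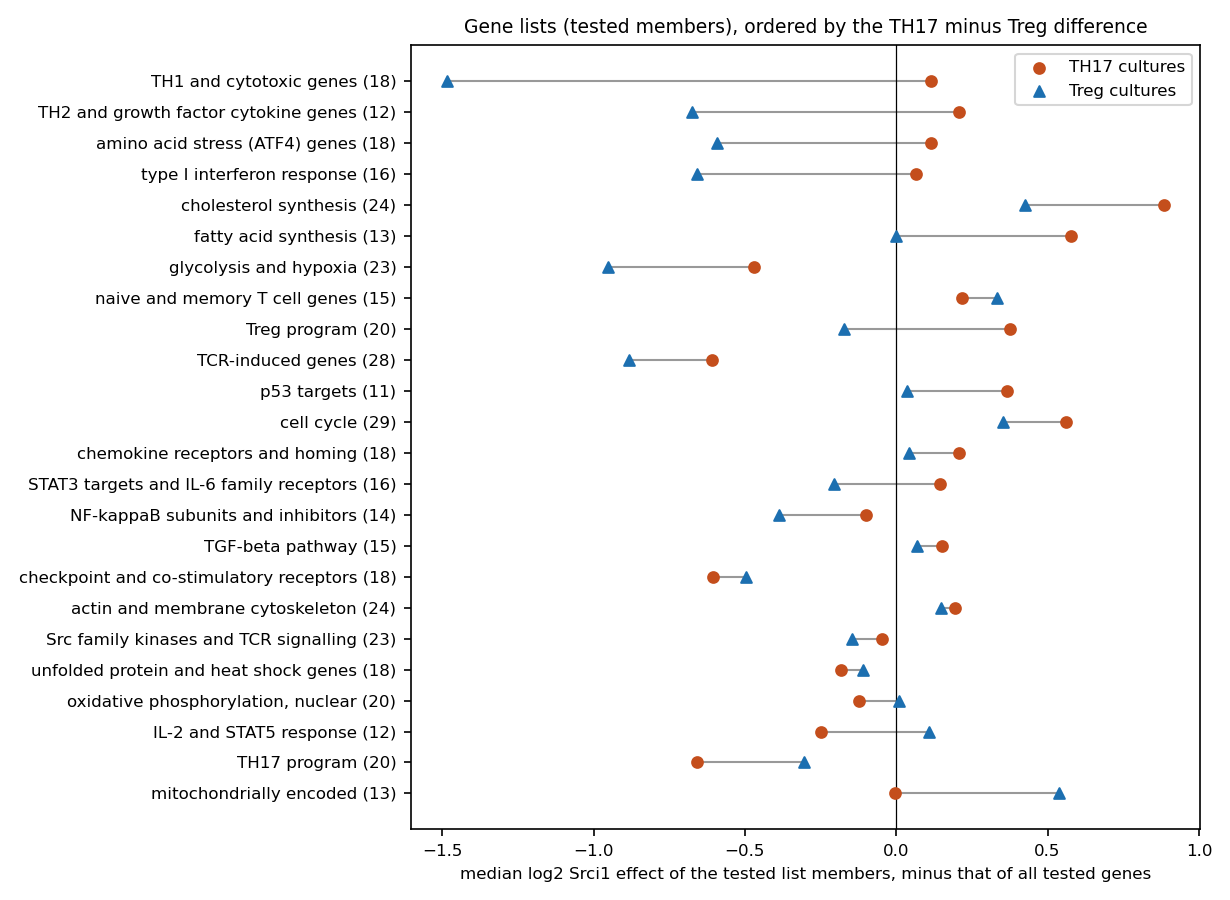
Median log2 Srci1 effect of the tested members of 24 gene lists (number in brackets), minus the median of all tested genes, in TH17 (orange circles) and Treg (blue triangles) cultures. The gap is widest for TH1 and cytotoxic genes, 0.11 in TH17 against -1.49 in Treg. Several lists have the reverse order, most widely the mitochondrially encoded genes, close to 0 in TH17 against 0.54 in Treg.

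Markers of other cell types that passed the filter were few. Of 8 B cell markers 3 were tested, and Ighm, also transcribed without rearrangement in T cells, rose from 111, 114 and 116 to 543, 508 and 533 TPM in TH17 and from 161, 159 and 162 to 271, 292 and 268 in Treg. Cd79a stayed under 1 TPM and Cd79b under 1.5 TPM. H2-Ab1, a class II gene that activated mouse T cells are not known for, fell from 71.5 ± 6.04 to 29.2 ± 2.83 TPM in TH17 and from 35.6 ± 2.12 to 5.98 ± 0.74 in Treg, while 7 of 10 myeloid markers were under 1 TPM in all 12 libraries. What part such cells had in these 2 genes was not tested.

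Which class a gene fell in depended on the scaling more than the difference itself did. Under median-of-ratios scaling 1468 of the 1811 called differences were called again and none turned. The shared-up class went from 1302 to 615 genes and shared-down from 320 to 663, TH17-specific up from 650 to 409 and TH17-specific down from 149 to 375. Of the 159 genes up in TH17 and down in Treg, 73 kept that class, and of the 29 with the reverse pattern 12 did. Among genes named above, Asns, Slc7a5, Ccr7, Srebf1, Stat3, Hspa1a and Tgif1 (31 ± 2.08 to 40.4 ± 2.18 TPM in TH17, 40.4 ± 1.97 to 28.8 ± 3.14 in Treg) became Treg-specific, Lta, Ltb and Armc6 became TH17-specific, and Atf4 was left with its Treg call alone.

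**Figure D5:**
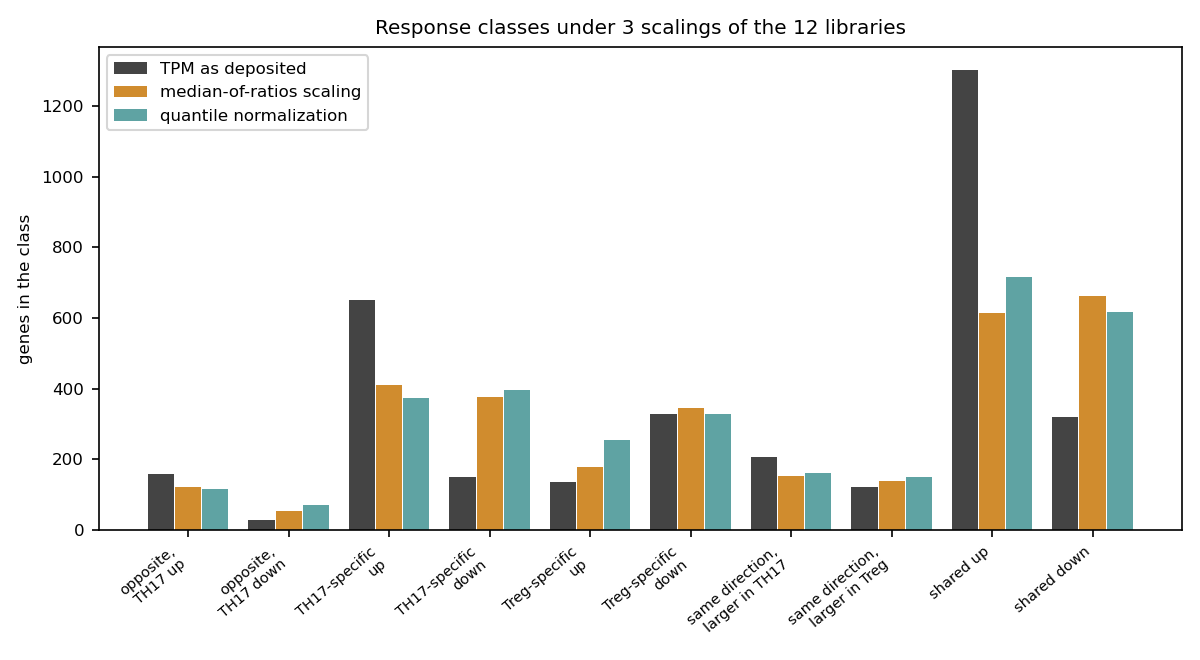
Number of genes (y axis) in each of 10 response classes with TPM as deposited (grey), median-of-ratios scaling (orange) and quantile normalization (teal). Shared up shrinks from 1302 to 615 and 717 genes and TH17-specific up from 650 to 409 and 373, while shared down grows from 320 to 663 and 617, TH17-specific down from 149 to 375 and 395, and Treg-specific up from 134 to 179 and 254.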

How the data were processed

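RNA-seq of poly(A) RNA was compared over 12 libraries. The authors deposited 1 table of TPM for 55421 gene identifiers in 15 libraries. STAR 2.7.9a, RSEM 1.3.3 and GRCm38 are named per the submitters' processing notes, and the annotation release is not given in the sources used here. RSEM divides reads among near-identical genes, so levels of close paralogs are uncertain. TPM carries no read depth, so no counting interval was computed. The 15 libraries include 3 not analysed here.

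From the deposited TPM, log2(TPM + 1) was fitted with limma 3.58.1 (R 4.3.3, trend) as 4 group means over 12 libraries, for genes with at least 1 TPM in 3 libraries. Tests were two-sided, with Benjamini-Hochberg adjustment over all 12445 genes. The code was tested on simulated data. Members and gene lists were chosen with earlier results of these data known. Named genes were 10 fixed genes, the 6 largest differences per response class (for shared genes, the largest smaller effect) with a mean of at least 5 TPM in 1 group and no overlap where called, and up to 5 members per list by adjusted p, plus, where a list was described as shared, up to 2 with the largest p for the difference. Chac1, Atf4, Stat2, Srebf2, Ifng, Nr4a1 and the marker genes were named outside this rule, after their values were seen, and some genes the rule names are not reported here. Alternatives were another pseudocount, filter, scaling, weighting, all 15 libraries, a replicate block, and each library left out. Promoters came from RefSeq (GRCm38.p6), with entries for 9124 tested genes.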

Additional observations from a re-analysis of the deposited data

Results flagged for a closer look

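For each gene named below, Srci1 and DMSO libraries did not overlap in either culture, and the shifts ran in opposite directions. The difference itself also passed the limma test at an adjusted p under 0.05. Over all 12445 tested genes the difference was called for 1434 in the higher (11.5%) and 377 in the lower direction (3.03%). Calls in both cultures with opposite signs were found for 188 genes (1.51%), 181 of them without overlap in either culture. Calls and overlap rest on the same libraries, so the lack of overlap is no separate evidence. The differences below are TH17 minus Treg, in log2.

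Among genes that rose in TH17 and fell in Treg, the genes named first had differences of 5.29 (Il3), 4.46 (Serpina3f), 3.93 (Gzmb), 3.74 (Prf1), 3.34 (Ubd), and 3.30 (Serpina3g), and Il1rn and Il13 had 3.27 and 1.64. Amino acid stress genes had 2.85 (Nupr1), 2.05 (Asns), 1.87 (Trib3), 1.09 (Slc7a5), 0.83 (Cars), 0.81 (Sars) and 0.49 (Atf4). Interferon-inducible and class I genes had 1.56 (Iigp1), 1.23 (H2-Q6), 1.22 (H2-Q7), 1.21 (Irgm2), 1.12 (Irgm1), 0.98 (Gbp2), 0.93 (Igtp) and 0.88 (Tgtp1). Signalling and receptor genes had 1.32 (Ccr8), 1.24 (Jun), 1.19 (Stat3), 1.05 (Ccr7), 0.89 (Il21r) and 0.85 (Tgif1), lipid genes 1.07 (Scd2) and 0.71 (Srebf1), and heat shock genes 1.5 (Hspa1a) and 1.31 (Hspa1b). The TH17 rise of Hspa1a was lost in 8 of the 21 alternative fits (adjusted p up to 0.219, limma), that of Asns in 15 and that of Sars in 5. The Treg fall of Srebf1 was lost in 4. Further genes listed here also lost a call in some fits.

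Genes that fell in TH17 and rose in Treg had differences of -2.30 (Ccr2), -1.96 (Id2), -1.54 (Id3), -1.49 (Ifitm1), -1.06 (Armc6), -0.97 (Pla2g4f), -0.89 (Lta) and -0.74 (Ltb). The Treg rise of Armc6 was lost in 11 of the alternative fits, and Ccr2, Pla2g4f, Lta and Ltb each lost a call in some fits.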

How the results depend on the processing

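Of the 127 named genes with a called difference, 3 lost it in at least 1 of 12 fits that left out a library, and 10 in at least 1 of 9 other alternatives, 3 of them under median-of-ratios scaling, 2 under quantile normalization and 8 with a pseudocount of 0.1. Most of these genes were picked for a large difference or a small adjusted p, so their stability says little about other genes. Of all 1811 called differences, 1214 (without Treg Srci1 library 1) to 1670 (without TH17 DMSO library 1) were called again when 1 library was left out. Why the counts moved was not tested. Median-of-ratios scaling gave 700 lower differences, 2150 genes up and 2109 down in TH17, 1368 up in Treg, 53 opposite with TH17 down, 409 TH17-specific up and 375 down, and 615 shared up and 663 down. Quantile normalization gave 824 lower differences, 2182 up and 1990 down in TH17, 70 opposite with TH17 down, 373 TH17-specific up and 395 down, 254 Treg-specific up, and 717 shared up and 617 down. Rescaling without ribosomal protein and mitochondrial genes gave 850 shared up. Array weights gave 2325 higher and 845 lower differences, 1455 down in TH17, 3407 up in Treg, 290 and 92 opposite, 982 TH17-specific up and 284 down, 311 Treg-specific up, and 463 and 250 in the same direction but larger in TH17 and in Treg.

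Leaving out 1 library gave 991 to 1864 higher and 239 to 461 lower differences, 3484 to 4764 up and 732 to 933 down in TH17, and 1492 to 3068 up and 1006 to 1515 down in Treg. Opposite genes ranged from 112 to 199 with TH17 up and 20 to 48 with TH17 down, TH17-specific from 403 to 924 up and 93 to 152 down, Treg-specific from 79 to 191 up and 244 to 358 down, larger in TH17 from 116 to 307, larger in Treg from 78 to 127, and shared from 918 to 1546 up and 267 to 354 down. Without TH17 DMSO library 3 there were 1436 higher and 461 lower differences. Signs turned for the difference in Il21 (1.37 with a pseudocount of 0.1), Lck (-0.089 with median-of-ratios, -0.005 with quantile, -0.009 rescaled, -0.001 with array weights) and Fyn (-0.042 and -0.047 with median-of-ratios and quantile), and for the TH17 effect of mt-Nd1 (-0.045 with median-of-ratios).

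With the replicate number as a block the difference was called for 1236 genes higher and 320 lower. Same-numbered libraries of different groups correlated between -0.113 and 0.134 in their deviations, and different-numbered ones between -0.153 and 0.137. With 3 libraries per group this cannot tell whether equal numbers mark a shared origin. The spread of 3 libraries per group limits precision: the median 95% interval of a difference reached 0.433 log2 to either side.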

Other observations

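The class that rose in TH17 and fell in Treg cultures also held genes of cell-autonomous immunity that belong to none of the lists, and they were chosen here after their values were seen. Iigp1, Irgm1, Irgm2, Igtp and Tgtp1 encode interferon-inducible GTPases that act on pathogen vacuoles. Igtp read 114, 115 and 107 TPM in TH17 DMSO, 159, 147 and 158 in TH17 Srci1, 457, 452 and 453 in Treg DMSO and 322, 344 and 319 in Treg Srci1 libraries. The groups did not overlap in either culture, and Treg stayed higher than TH17 throughout. Irgm2 rose 1.64-fold in TH17 and fell 1.46-fold in Treg, and Iigp1 went from 0.33 ± 0.11 to 1.38 ± 0.23 TPM and from 62.9 ± 3.27 to 37.8 ± 3.32 (SD, n = 3). Irgm1 and Tgtp1 rose 1.28-fold and 1.3-fold in TH17, calls that were lost after median-of-ratios scaling (adjusted p 0.213 and 0.169, limma) and quantile normalization. These families share sequence, so single-gene levels are uncertain.

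The class I genes H2-Q6 and H2-Q7, which encode Qa-2 molecules and are near-identical, moved the same way. H2-Q7 went from 48.7 ± 3.37 to 72.7 ± 4.55 TPM in TH17 and from 301 ± 14.8 to 192 ± 9.38 in Treg, and H2-Q6 from 3.11 ± 0.32 to 6.11 ± 0.57 and from 49.3 ± 3.66 to 36.1 ± 2.29. Cars and Sars, which encode the cysteine and serine tRNA synthetases, rose 1.3-fold and 1.21-fold in TH17 and fell 1.39-fold and 1.45-fold in Treg. Their TH17 rise was not called after median-of-ratios scaling (adjusted p 0.285 and 0.964), and that of Sars was also lost without TH17 DMSO library 3 or TH17 Srci1 library 2 (0.0509 and 0.0588).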
